A study of Mus musculus with 2 samples.

Results

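Cardiac endothelial cells, the lining of the coronary vessels, were selected from single-cell transcriptomes of mouse hearts taken 7 days after myocardial infarction (MI, loss of heart muscle when a coronary artery is closed). A barcode counted as endothelial when the UMIs (unique molecular identifiers, the tags by which captured RNA molecules are counted) of Pecam1, Cdh5, Egfl7 and Kdr summed to at least 4 and when it had 0 UMIs of Cd3e, Ptprc and Cd79a, which mark T cells, leukocytes and B cells. This left 34 cells in the library from anti-PD1 injected mice and 50 cells in the library from anti-IgG injected mice, 84 of 10144 barcodes that had at least 300 genes, at least 500 UMIs and at most 10% mitochondrial UMIs. The anti-PD1 mice had received an antibody against the T cell inhibitory receptor PD1, and the anti-IgG mice a control antibody. Both groups are labelled wild type (WT) and both had MI. The dose, the injection schedule, the age of the mice and whether hearts were pooled are not given in the labels.

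Each group was 1 library, so the differences below were not checked in replicates, and p-values are not given. All intervals are exact 95% intervals that cover counting error only, and those of gene ratios are too narrow where a gene's UMIs lie in few cells. The submitters call both libraries T cells, and the design text speaks of a sort, while the protocols in the labels describe tissue digestion, straining, red cell lysis and dead cell removal with no sort. The endothelial cells therefore entered the libraries by a route the labels do not give, and a difference in their number between the libraries cannot be told apart from a difference in preparation. The libraries held 6026 anti-PD1 barcodes with 29046341 UMIs and 4380 anti-IgG barcodes with 22806806 UMIs. The 2 libraries shared 47 barcode sequences, which belonged to 2 anti-PD1 and 1 anti-IgG endothelial cells. No doublet caller was run, and cells with transcripts of another type are counted below.

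Endothelial cells form the inner surface of every vessel, where they pass oxygen and nutrients to the tissue and admit leukocytes from the blood. In the heart most of them belong to capillaries, whose cells take up fatty acids for the muscle through proteins such as CD36, GPIHBP1 and FABP4, while arteries, veins, lymphatics and the endocardium have markers of their own. Endothelial cells answer interferons by raising MHC class I, guanylate-binding proteins and, in many settings, PD-L1 (Cd274), the ligand that engages PD1 on T cells. They also switch on immediate early genes such as Fos within minutes of a stimulus; tissue digestion is one.

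The results turn on immediate early genes and on a few interferon-responsive genes, and their promoters carry well-known short motifs. The 120 bases before the annotated start of 6 of these genes are shown 5′ to 3′ on the gene's strand, from RefSeq on GRCm38.p6. Capitals mark TGACG, the core of the cAMP response element, in Fos, Atf3 and Nr4a1, the interferon gamma motif TTCNNNGAA in Irf1 and Icam1, and the type I interferon motif (GAAA, any 2 bases, GAAA) in Isg15. All motifs were searched on both strands, and a TGACG on the opposite strand reads CGTCA.
Fos, chr12:85473770-85473889, plus strand: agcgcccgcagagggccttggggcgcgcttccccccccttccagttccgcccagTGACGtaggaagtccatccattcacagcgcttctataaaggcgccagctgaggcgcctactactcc
Atf3, chr1:191183334-191183453, minus strand: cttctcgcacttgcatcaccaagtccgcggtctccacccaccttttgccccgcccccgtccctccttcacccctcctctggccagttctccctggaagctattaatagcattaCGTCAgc
Nr4a1, chr15:101266726-101266845, plus strand: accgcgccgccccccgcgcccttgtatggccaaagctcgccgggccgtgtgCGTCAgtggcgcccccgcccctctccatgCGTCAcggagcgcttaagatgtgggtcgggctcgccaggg
Irf1, chr11:53769894-53770013, plus strand: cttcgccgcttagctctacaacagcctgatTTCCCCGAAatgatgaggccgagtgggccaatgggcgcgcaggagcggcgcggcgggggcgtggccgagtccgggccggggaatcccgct
Icam1, chr9:21015820-21015939, plus strand: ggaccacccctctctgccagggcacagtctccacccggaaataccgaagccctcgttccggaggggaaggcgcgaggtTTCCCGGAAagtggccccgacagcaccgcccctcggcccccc
Isg15, chr4:156200819-156200938, minus strand: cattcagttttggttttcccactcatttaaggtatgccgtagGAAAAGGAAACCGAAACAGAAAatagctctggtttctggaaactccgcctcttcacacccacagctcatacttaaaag
In these windows TGACG began 66 bases before the start in Fos and 7 bases before it in Atf3, and Nr4a1 had matches at 69 and 40 bases. The interferon gamma motif began at 90 bases in Irf1 and at 42 bases in Icam1. Isg15 had 3 overlapping matches to the type I motif, at 78, 72 and 66 bases, and no capital stretch overlapped a match to another of the 3 motifs. Over 250 bases before the start, TGACG was found in 18 of 30 promoters of the immediate early list (60%, from 24 of its 29 genes), against 17.8% of all 32851 promoters. The interferon gamma motif was in 11 of 23 promoters of the interferon gamma list (47.8%, from 20 of 31 genes), against 7.02% of all promoters. The type I motif was in 14 of 34 promoters of the type I list (41.2%, from 28 of 40 genes), against 2.98% of all promoters. It was also in 11 of 23 interferon gamma promoters (47.8%), and TGACG was also in 8 of 13 promoters of the MHC class I list (61.5%), so neither motif is particular to the list it is named with here. These matches describe the letters of the promoters and show no binding in these cells.

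The cells carried endothelial transcripts well beyond the 4 genes that chose them. Fabp4, the fatty acid binding protein of capillary endothelium, was present in all 34 anti-PD1 and all 50 anti-IgG cells. It stood at 145 and 150.3 UMIs per 10000 UMIs in anti-PD1 and anti-IgG endothelial cells. In T cells of the same libraries, taken as barcodes with a Cd3e UMI and no UMI of the 4 selecting genes (3813 anti-PD1 and 2694 anti-IgG cells), it stood at 0.0342 and 0.0294. Outside the 4 selecting genes, 150 genes were at least 100 times as high as in T cells in both libraries. Among them, the lipoprotein lipase anchor Gpihbp1 had 22.7 UMIs per 10000 in anti-PD1 and 19.5 in anti-IgG endothelial cells and none in the fibroblast cells of either library (17 anti-PD1 and 19 anti-IgG cells). The fatty acid carrier Cd36 had 32.8 and 29.3, the caveolar coat gene Cav1 24.2 and 24.8, and the matricellular gene Sparcl1 30.9 and 30.1 per 10000 in anti-PD1 and anti-IgG endothelial cells. These values describe how the cells differ from their neighbours, since the selection used the same cells.

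The selecting genes themselves summed to 5 to 95 UMIs per cell (median 20) in anti-PD1 and 4 to 324 (median 25.5) in anti-IgG cells. At the edge of the rule, 0 anti-PD1 and 3 anti-IgG cells had exactly 4 such UMIs, and 2 anti-PD1 and 5 anti-IgG barcodes had 3 of them with 0 lymphoid UMIs. A further 65 anti-PD1 and 78 anti-IgG barcodes reached 4 UMIs but also had a UMI of Cd3e, Ptprc or Cd79a and were left out. The cells had a median of 4527 UMIs and 1970 genes in anti-PD1 and 5080 UMIs and 2302 genes in anti-IgG, with 563 to 19843 and 544 to 52776 UMIs per cell. Mitochondrial genes took a median of 1.79% of UMIs in anti-PD1 and 1.90% in anti-IgG endothelial cells. The deepest cell held 10.6% of the 187641 endothelial UMIs in anti-PD1 and 11.9% of the 443154 in anti-IgG.

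In 4 cells the markers of another cell type outweighed those of endothelium. One anti-PD1 cell had 454 UMIs of fibroblast genes beside 100 UMIs of 16 endothelial markers outside the rule, and another had 287 UMIs of pericyte and smooth muscle genes beside 101. One anti-IgG cell had 319 UMIs of macrophage genes beside 118. The fourth, in anti-IgG, had 537 UMIs of fibroblast and 166 of epicardial and mesothelial genes beside 8 endothelial UMIs. Its 4 selecting UMIs were all Kdr and it had 1 UMI of Fabp4, so the data go against calling that barcode endothelial. These 4 mixed cells, singled out after their values were seen, left 32 anti-PD1 and 48 anti-IgG cells, and results that rest on them are given both ways. T cell markers, of which Cd3e and Ptprc were 0 by the rule, summed to 3 UMIs in the 34 anti-PD1 and 11 in the 50 anti-IgG cells. Their level was 0.16 and 0.25 per 10000, against 72.2 and 79.8 in T cells of the anti-PD1 and anti-IgG libraries. As those T cells were chosen by a Cd3e UMI, part of this contrast was set by the selection.

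**Figure D1:**
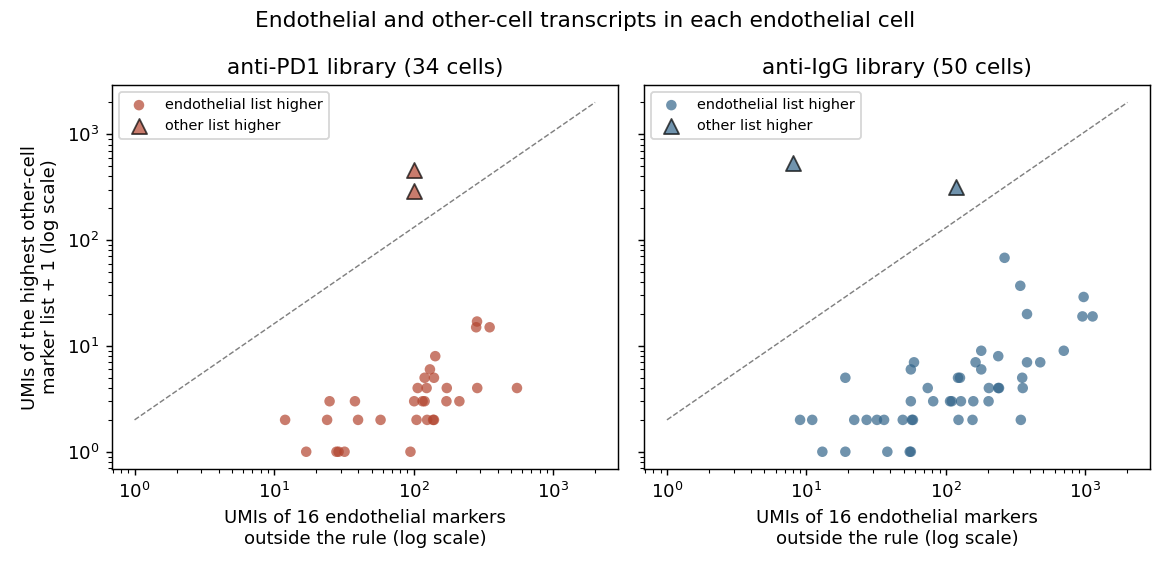
UMIs of 16 endothelial markers outside the selecting genes (x axis, log scale) against UMIs of the highest other-cell marker list plus 1 (y axis, log scale), 1 point per cell, anti-PD1 left and anti-IgG right; the dashed line marks equal UMIs. All but the 4 triangles, 2 in each library, lie below the line.

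Endothelial cells made up 0.583% (0.404 to 0.813%) of kept anti-PD1 barcodes and 1.16% (0.862 to 1.53%) of kept anti-IgG barcodes. The ratio of the shares was 0.502 (0.315 to 0.792). The anti-PD1 share was thus the lower one beyond counting error. As other cells set the denominator, fewer endothelial cells and more recovered T cells cannot be told apart.

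To compare genes, each gene's UMIs in all endothelial cells of a library were added up and scaled to the cells' total UMIs, and the ratio is the anti-PD1 level over the anti-IgG level. Of 3827 genes with at least 30 UMIs in the 2 libraries together, 406 (10.6%) were at least 1.5 times as high in anti-PD1 and 635 (16.6%) were lower by the same factor, with a median log2 ratio of -0.07. In T cells the same genes had a median of -0.08. Each gene list below is read against these shares of 10.6% higher and 16.6% lower, and its count covers only the members with 30 UMIs. All lists were chosen with earlier results of these libraries known.

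Most cells of both libraries had a capillary profile. Assigned by whichever of the capillary, arterial and venous lists gave the most UMIs, 29 of 32 anti-PD1 cells (90.6%, 75 to 98.0%) and 47 of 48 anti-IgG cells (97.9%, 88.9 to 99.9%) without the mixed ones were capillary. The intervals overlap. The 14 capillary genes summed to medians of 129.7 and 121 UMIs per 10000 per anti-PD1 and anti-IgG cell, and their ranges of 10.2 to 285 and 6.44 to 322 also overlapped almost wholly. Of 13 capillary genes counted, 1 was higher in anti-PD1 and 2 were lower, with a median log2 ratio of 0.22, and without the mixed cells 4 were higher and 2 lower (0.34). The glycerol channel Aqp7 had 61 anti-PD1 and 81 anti-IgG UMIs, a ratio of 1.78 (1.25 to 2.51). The water channel Aqp1 had 105 and 426 UMIs, a ratio of 0.58 (0.47 to 0.72), and the homeobox gene Meox2, which in mice supports endothelial fatty acid transport, had 20 and 76 and a ratio of 0.62 (0.36 to 1.03).

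Only a handful of cells had another vessel type as their leading list. In anti-PD1, 1 cell had 67 arterial, 15 venous and 9 capillary UMIs, among them 12 UMIs of the arterial connexin Gja4 and 3 of its relative Gja5. Another anti-PD1 cell had 18 arterial and 4 capillary UMIs. The only cell assigned to the venous list, in anti-PD1, had 18 venous, 7 arterial and 4 capillary UMIs. It had 2 UMIs each of Plvap, the diaphragm protein of fenestrated vessels, and the clotting factor carrier Vwf. Both genes are also on the endocardial list, and Nr2f2 of the venous list had 0 UMIs in this cell. In anti-IgG, 1 deep cell had 52 arterial, 27 venous and 18 capillary UMIs with 13 UMIs of Sox17 and 168 of Fabp4. The lymphatic regulator Prox1 and the endocardial receptor Npr3 had 0 UMIs in all 84 cells. With 3 counts taken as the limit for a count of 0, this allows up to 0.16 UMIs per 10000 in anti-PD1 and 0.0677 in anti-IgG. The endocardial and lymphatic lists were not part of the assignment above. The endocardial list summed to 65 anti-PD1 and 108 anti-IgG UMIs, with at least 3 UMIs in 10 and 9 cells. Of its 3 counted genes, 2 were higher in anti-PD1 and 0 lower (median log2 ratio 0.80), or 1 and 0 without the mixed cells (0.51). The lymphatic list summed to 46 and 85 UMIs, with at least 3 UMIs in 6 and 10 cells. With Npr3 and Prox1 absent, no cell was named endocardial or lymphatic. Flt4, a receptor of lymphatic and growing vessels, had 14 anti-PD1 and 27 anti-IgG UMIs.

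Arterial genes were nonetheless higher in anti-PD1 cells as a list, with 5 of 9 counted genes at least 1.5 times as high and 0 lower (median log2 ratio 0.80, and 0.81 without the mixed cells). Hey1, the Notch target that sets arterial fate, had 46 UMIs in 12 anti-PD1 cells and 19 UMIs in 10 anti-IgG cells, a ratio of 5.72 (3.28 to 10.3). Sox17, an arterial transcription factor also counted among the pan-endothelial identity genes below, had 69 UMIs in 20 and 66 UMIs in 25 cells. Its ratio was 2.47 (1.74 to 3.51). Both genes were thus found in more cells than the few with an arterial profile. Fbln5, an elastic fibre protein, had a ratio of 2.45 (1.40 to 4.27) from only 7 anti-PD1 and 5 anti-IgG cells. Without the mixed cells Fbln5 had 23 and 6 UMIs and a ratio of 9.82 (3.89 to 29.5). Of those 23 anti-PD1 UMIs, 17 lay in 1 cell, and 22 of the 28 anti-IgG UMIs had lain in 1 mixed cell. Both Fbln5 ratios thus rest on few cells. Glul, glutamine synthetase, had a ratio of 2.83 (1.91 to 4.21), which was 1.89 without the mixed cells. The Notch ligand Dll4 had a ratio of 1.27 (0.82 to 1.95) and the arterial ephrin Efnb2 1.45 (0.98 to 2.12), both with intervals that include 1. Per cell, however, the arterial list had medians of 11.3 and 10.5 UMIs per 10000 in anti-PD1 and anti-IgG cells, and 16 of 32 anti-PD1 cells lay above the anti-IgG median. The arterial ligand gene Jag1, outside the count with 18 UMIs in 7 anti-PD1 and 4 UMIs in 4 anti-IgG cells, had a ratio of 10.6 (3.50 to 43.2), and without the mixed cells 8 and 4 UMIs and 5.12 (1.37 to 23.2).

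**Figure D2:**
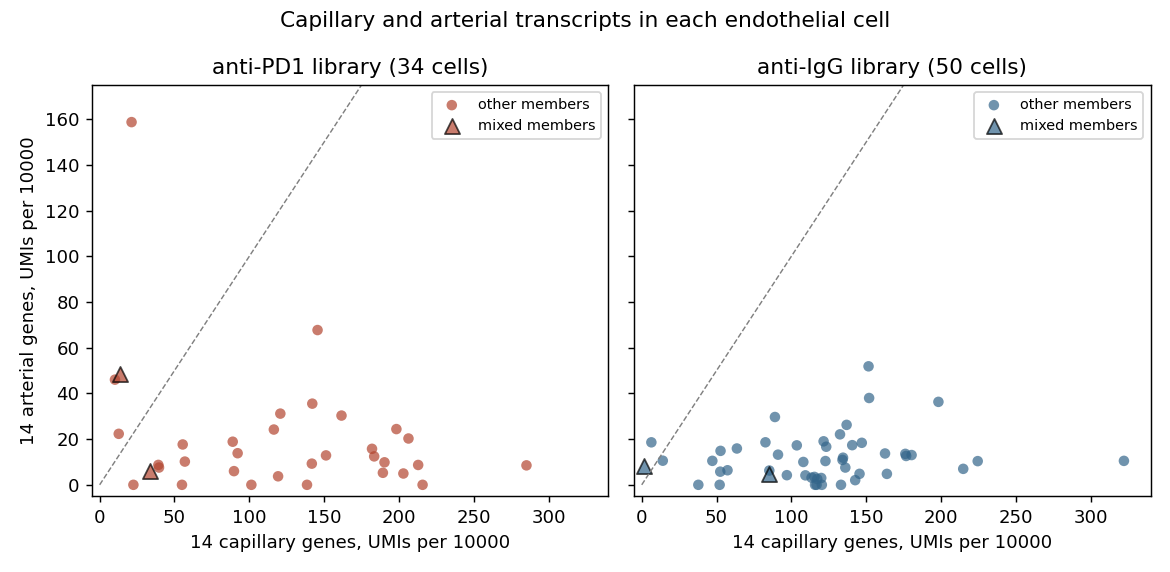
Summed levels of 14 capillary genes (x axis) and 14 arterial genes (y axis) in UMIs per 10000 UMIs, 1 point per cell, anti-PD1 left and anti-IgG right; the dashed line marks equal levels and triangles are the 4 mixed cells. Most cells lie under the line, and 1 anti-PD1 cell stands far above it at 159 arterial UMIs per 10000.

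Pan-endothelial genes were close between the libraries. Of 20 identity genes, 3 were higher in anti-PD1 and 0 lower (median log2 ratio 0.14), and the 4 selecting genes lay between 0.90 and 1.17. The claudin of endothelial tight junctions, Cldn5, had 97 anti-PD1 and 147 anti-IgG UMIs, a ratio of 1.56 (1.19 to 2.03). Mmrn2, a matrix glycoprotein of vessels, had 81 and 95, a ratio of 2.01 (1.48 to 2.74). The venous list had 5 counted genes, of which 3 were higher and 1 lower (3 and 0 without the mixed cells), but its largest, the proteoglycan Bgn (113 anti-PD1 and 41 anti-IgG UMIs, ratio 6.51), had 97 of its anti-PD1 UMIs in 1 mixed cell and a ratio of 0.97 without the mixed cells. The venous ephrin receptor Ephb4 had 50 and 99 UMIs, a ratio of 1.19 (0.83 to 1.69).

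The PD1 ligands were scarce in these cells. Cd274, which encodes PD-L1, had 3 UMIs in 3 of 34 anti-PD1 cells and 11 UMIs in 8 of 50 anti-IgG cells. No cell held more than 2 UMIs. The levels were 0.16 (0.033 to 0.467) per 10000 UMIs in anti-PD1 and 0.25 (0.12 to 0.44) in anti-IgG, and the ratio of 0.64 (0.12 to 2.44) shows no difference detectable at this depth. T cells had 0.37 and 0.24 UMIs of Cd274 per 10000 in anti-PD1 and anti-IgG. After every cell was thinned to 2000 UMIs, which left out 6 anti-PD1 and 10 anti-IgG endothelial cells, 1 of 28 (3.57%) and 2 of 40 (5%) had a Cd274 UMI, beside 7.19% and 4.14% of T cells. Fibroblast cells had 0 Cd274 UMIs in both libraries, from only 17 anti-PD1 and 19 anti-IgG cells. The share of free RNA in the endothelial Cd274 UMIs was not tested, so these few UMIs are not read as expression. Pdcd1lg2, the gene of the second ligand PD-L2, had 0 UMIs in both libraries, with the same upper limits as Prox1, and Pdcd1 itself had 0 UMIs in anti-PD1 and 1 in anti-IgG endothelial cells.

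Other genes of checkpoint ligands were measured better. Of 5 with at least 30 UMIs, 1 was higher in anti-PD1 and 3 were lower (median log2 ratio -0.59), and without the mixed cells 1 was higher and 1 lower (-0.34). Lgals9, galectin-9, a ligand of TIM-3, had 73 UMIs in 24 anti-PD1 cells and 260 UMIs in 36 anti-IgG cells. Its ratio was 0.66 (0.50 to 0.86), and 0.71 (0.53 to 0.92) without the mixed cells. Nectin2, a ligand of TIGIT and its relatives, had 8 and 44 UMIs, a ratio of 0.43 (0.17 to 0.92) whose interval without the mixed cells reached past 1 (0.18 to 1.1). The don't-eat-me ligand Cd47 had 50 and 97 UMIs and a ratio of 1.22 (0.85 to 1.73). Tnfsf10, the death ligand TRAIL, had 18 UMIs in 11 anti-PD1 and 21 UMIs in 14 anti-IgG cells, a ratio of 2.02 (1.02 to 3.99). The inhibitory ligand gene Vsir had 8 and 30 UMIs (0.63, 0.25 to 1.41), an interval that includes 1.

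Type I interferon response genes were abundant in both libraries and differed little as a list. Their summed level had medians of 106 UMIs per 10000 in anti-PD1 cells and 105 in anti-IgG cells without the mixed ones, and 16 of 32 anti-PD1 cells lay above the anti-IgG median. Of 26 genes counted, 0 were higher in anti-PD1 and 5 lower (median log2 ratio -0.32), and without the mixed cells 2 were higher and 5 lower (-0.19). The share lower is near the 16.6% of all genes. T cells had 9 of the same genes lower and a median of -0.53. Ifitm3, a membrane protein that blocks virus entry, was in all 34 anti-PD1 and 48 of 50 anti-IgG cells, with 493 and 1164 UMIs and a ratio of 1.00 (0.90 to 1.11), or 1.18 without the mixed cells. The surface protein gene Ly6e had 557 and 1296 UMIs (1.02, 0.92 to 1.12), and the ubiquitin-like modifier gene Isg15 had 32 and 72 (1.05, 0.67 to 1.61).

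The lower type I genes were mostly thinly measured. Bst2, tetherin, had 97 anti-PD1 and 319 anti-IgG UMIs, a ratio of 0.72 (0.57 to 0.90) that became 0.82 (0.64 to 1.03) without the mixed cells. Oasl2, of the 2′-5′ oligoadenylate synthetase family, had 9 and 63 UMIs, of which 27 lay in 1 anti-IgG cell, and its ratio of 0.34 (0.15 to 0.68) became 0.57 (0.23 to 1.25). Ifi27l2a had 10 UMIs in 5 anti-PD1 cells and 122 UMIs in 15 anti-IgG cells, a ratio of 0.19 (0.09 to 0.37). When each cell was weighted alike, that ratio was 1.11, with 1 anti-PD1 cell at 34.6 UMIs per 10000 from 3 UMIs. In thinned cells 0 of 28 anti-PD1 and 5 of 40 anti-IgG cells had an Ifi27l2a UMI. The antiviral gene Rsad2, with 26 and 88 UMIs, had a ratio of 0.70 (0.43 to 1.09), an interval that includes 1.

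Among 13 interferon gamma response genes, 3 were higher in anti-PD1 and 1 was lower, with a median log2 ratio of -0.06 (0.16 without the mixed cells). Irf1, a transcription factor induced early by interferon gamma, had 114 UMIs in 22 of 34 anti-PD1 cells and 36 UMIs in 20 of 50 anti-IgG cells. The ratio was 7.48 (5.10 to 11.2), and 6.40 (4.30 to 9.70) without the mixed cells, with medians of 1.78 and 0 UMIs per 10000 per anti-PD1 and anti-IgG cell. In thinned cells, 15 of 28 anti-PD1 and 6 of 40 anti-IgG cells had an Irf1 UMI. In T cells the Irf1 ratio was 1.22 (1.15 to 1.29), and in fibroblast cells 11.2 (2.74 to 97.9) from 22 anti-PD1 and 2 anti-IgG UMIs. Icam1, the adhesion molecule that binds leukocyte integrins, had 72 UMIs in 12 anti-PD1 cells and 13 UMIs in 7 anti-IgG cells, a ratio of 13.1 (7.19 to 25.7). Of the anti-PD1 Icam1 UMIs, 35 lay in 1 cell, and without the mixed cells the ratio was 11.

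Other counted genes of the interferon gamma response lay closer to 1 than Irf1 and Icam1. The guanylate-binding protein gene Gbp4 had 21 and 27 UMIs in anti-PD1 and anti-IgG cells (1.84, 0.99 to 3.37), while Gbp9 had 15 and 76 (0.47, 0.25 to 0.82), Gbp7 0.96 (0.58 to 1.54) and Gbp2 0.82 (0.45 to 1.42). The immunoproteasome subunit gene Psmb8 had a ratio of 1.23 (0.85 to 1.76). Socs1, the feedback inhibitor of cytokine signalling, had 8 UMIs in 7 anti-PD1 cells and 0 in 50 anti-IgG cells, or 6 and 0 without the mixed cells, too few to be among the counted genes. The receptor chains had 68 and 183 UMIs for Ifngr1 (0.88, 0.65 to 1.16) and 8 and 37 for Ifngr2 (0.51, 0.21 to 1.11). Of 12 MHC class I presentation genes counted, 0 were higher and 1 was lower (median log2 ratio -0.10). Without the mixed cells 1 was higher and 1 lower (0.16). The light chain gene B2m had a ratio of 1.03 (0.90 to 1.19), and the heavy chains H2-D1 0.95 (0.84 to 1.08) and H2-K1 0.94 (0.81 to 1.1). Without the mixed cells B2m was at 1.15 (0.99 to 1.33), an interval that includes 1. H2-D1 was then at 1.19 (1.04 to 1.35) and H2-K1 at 1.25 (1.06 to 1.46), short of the 1.5-fold limit but with intervals above 1. Per cell, the class I list had medians of 71.8 and 56.7 UMIs per 10000 in anti-PD1 and anti-IgG cells without the mixed ones. Erap1, which trims peptides for class I, had 7 and 42 UMIs (0.39, 0.15 to 0.88; without the mixed cells 0.46, 0.17 to 1.04). MHC class II genes had 4 UMIs in anti-PD1 and 64 in anti-IgG cells, and 4 and 15 without the mixed cells.

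**Figure D3:**
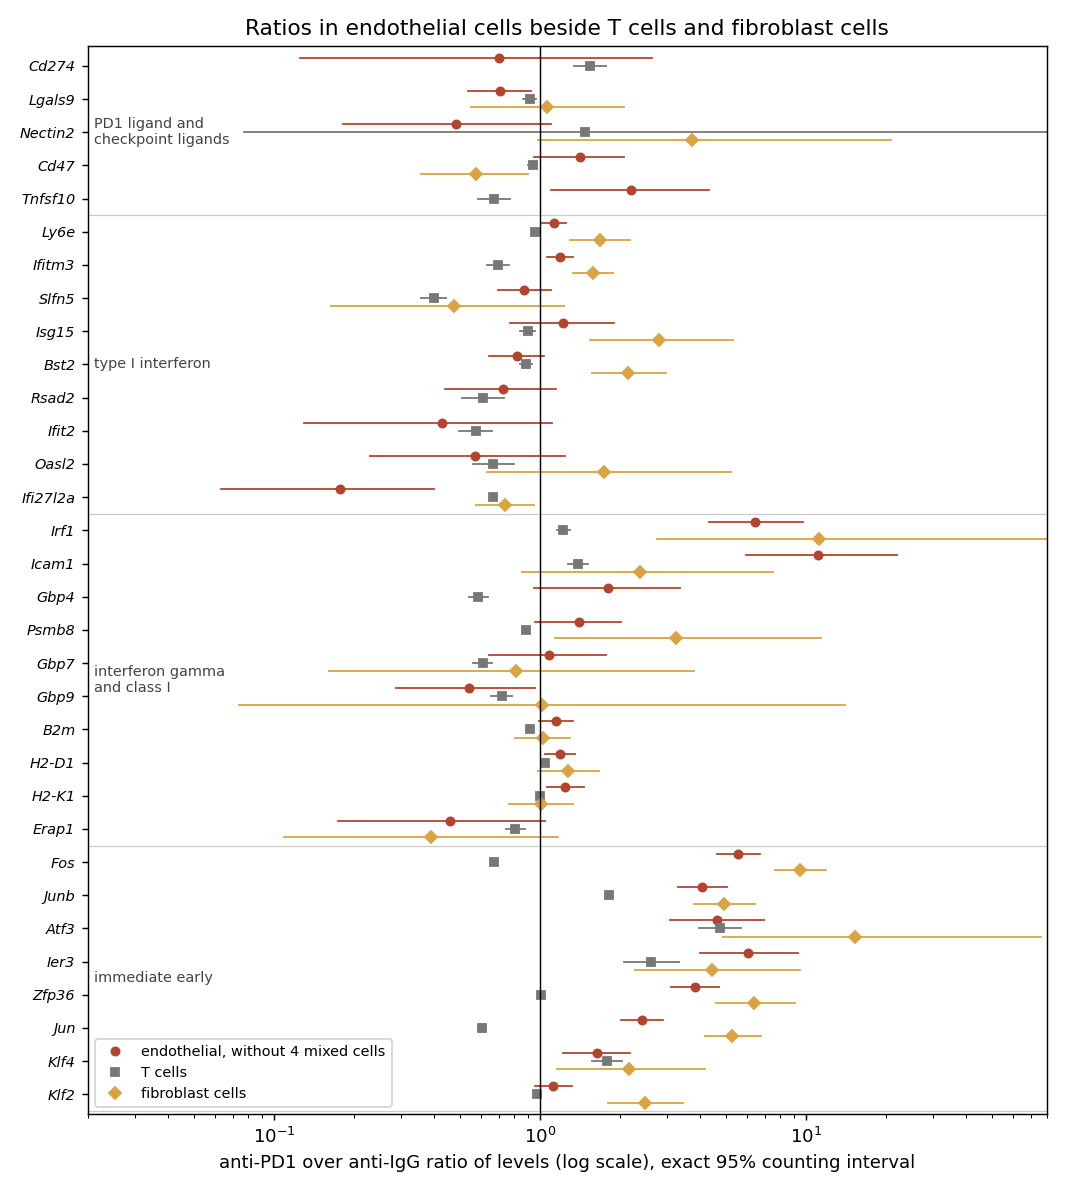
Anti-PD1 over anti-IgG ratios of levels (x axis, log scale, bars are exact 95% counting intervals) in endothelial cells without the 4 mixed cells, in T cells and in fibroblast cells, for genes of the checkpoint ligand, interferon and immediate early lists; ratios with 0 UMIs in a library are not drawn. Irf1, Icam1 and the immediate early genes Fos, Junb, Atf3, Ier3 and Zfp36 lie above 3 in endothelial cells, while most type I interferon genes have intervals that include 1.

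Immediate early genes had the largest share of higher genes of all lists with at least 10 counted genes. Of 21 counted, 17 were at least 1.5 times as high in anti-PD1 endothelial cells and 0 were lower, with a median log2 ratio of 1.38, and 15 of 21 and 1.28 without the mixed cells. Beside this stand 10.6% of all genes higher and a median of -0.07. The 29 genes of the list summed to medians of 130 UMIs per 10000 in anti-PD1 and 48.4 in anti-IgG cells without the mixed ones. The groups overlapped, with 26 of 32 anti-PD1 cells above the anti-IgG median, 3 of 48 anti-IgG cells above the anti-PD1 median and 4 anti-PD1 cells above every anti-IgG cell.

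Fos, a subunit of the AP-1 transcription factor, had 546 UMIs in 23 of 34 anti-PD1 cells and 254 UMIs in 12 of 50 anti-IgG cells. The ratio was 5.08 (4.37 to 5.92), although 135 of the anti-IgG UMIs lay in 1 cell. Without the mixed cells it was 5.57 (4.64 to 6.70), with a median of 15.8 UMIs per 10000 in anti-PD1 and 0 in anti-IgG cells. After thinning, 18 of 28 anti-PD1 cells (64.3%, 44.1 to 81.4%) and 6 of 40 anti-IgG cells (15.0%, 5.71 to 29.8%) had a Fos UMI. More anti-PD1 than anti-IgG cells thus held Fos transcripts at equal depth. Its partners followed: Junb had 396 and 187 UMIs (5.0, 4.19 to 5.98), Jun 319 and 283 (2.66, 2.26 to 3.13) and Jund 337 and 305 (2.61, 2.23 to 3.06) in anti-PD1 and anti-IgG cells. Without the mixed cells 235 and 148 UMIs were left for Junb, 241 and 255 for Jun, and 265 and 248 for Jund.

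Further early genes had the same direction. The stress factor Atf3, with TGACG 7 bases before its start, had 126 anti-PD1 and 52 anti-IgG UMIs, a ratio of 5.72 (4.11 to 8.06). Without the mixed cells Atf3 had 72 and 40 UMIs and a ratio of 4.61 (3.09 to 6.96). Ier3, an early survival gene, had 125 and 38 (7.77, 5.36 to 11.5), and Zfp36, which speeds decay of cytokine mRNAs, had 299 and 182 (3.88, 3.22 to 4.69). In the cells without the mixed ones, Ier3 had 80 anti-PD1 and 34 anti-IgG UMIs, and Zfp36 had 236 and 158. Egr1, the zinc finger factor of growth signals, had 341 and 161 UMIs (5.0, 4.14 to 6.07), but 120 of its anti-PD1 UMIs lay in 1 cell and the ratio was 2.61 without the mixed cells. The nuclear receptor gene Nr4a1 had 39 and 13 UMIs (7.09, 3.70 to 14.5), or 3.55 without the mixed cells. Gadd45b, a stress gene, had 54 UMIs in 8 anti-PD1 cells and 2 UMIs in 2 anti-IgG cells (63.8, 16.8 to 540.0), and 20 and 2 without the mixed cells. Klf4, a shear-responsive factor, had a ratio of 1.98 (1.55 to 2.53), whereas Klf2, its relative that keeps endothelium quiescent under flow, had 274 and 575 UMIs and a ratio of 1.13 (0.97 to 1.30).

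These genes had other ratios in the T cells and ratios of like direction in the fibroblast cells. In T cells the Fos ratio was 0.67 (0.65 to 0.69) and the Jun ratio 0.61 (0.59 to 0.62), below 1, while Junb was at 1.82 (1.79 to 1.85) and Atf3 at 4.72 (3.95 to 5.68). Over the T cells, 11 of the 21 early genes were higher and 1 lower, with a median of 0.67. In fibroblast cells the Fos ratio was 9.46 (7.60 to 11.9) and the Junb ratio 4.90 (3.78 to 6.43). The 29 genes summed to 184 and 44.6 UMIs per 10000 in anti-PD1 and anti-IgG fibroblast cells. In anti-PD1 and anti-IgG endothelial cells they summed to 211 and 80.8, mixed cells included. Without the mixed cells, 2691 of the 3955 anti-PD1 and 3129 of the 3581 anti-IgG UMIs of these genes were left. The medians per endothelial cell were then 130 and 48.4 UMIs per 10000. The part of digestion time or handling in these differences was not tested, and the libraries differ in antibody and in preparation at once, so these cannot be told apart.

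Heat shock genes had 5 of 13 counted genes higher in anti-PD1 and 0 lower (median log2 ratio 0.42). The inducible chaperone Hspa1a had 66 UMIs in 12 anti-PD1 and 24 UMIs in 9 anti-IgG cells, a ratio of 6.49 (4.02 to 10.8), or 10.8 (5.95 to 20.9) without the mixed cells, while in T cells it was 0.67 (0.63 to 0.72). Its twin Hspa1b, whose near-identical sequence can split or lose reads, had 32 and 12 UMIs (6.30, 3.16 to 13.4). The endoplasmic reticulum chaperone Hspa5 had 163 and 184 UMIs (2.09, 1.68 to 2.60), and the constitutive Hspa8 had 303 and 670 (1.07, 0.93 to 1.22). Per cell the list had close medians of 54.6 and 51.6 UMIs per 10000 in anti-PD1 and anti-IgG cells without the mixed ones.

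**Figure D4:**
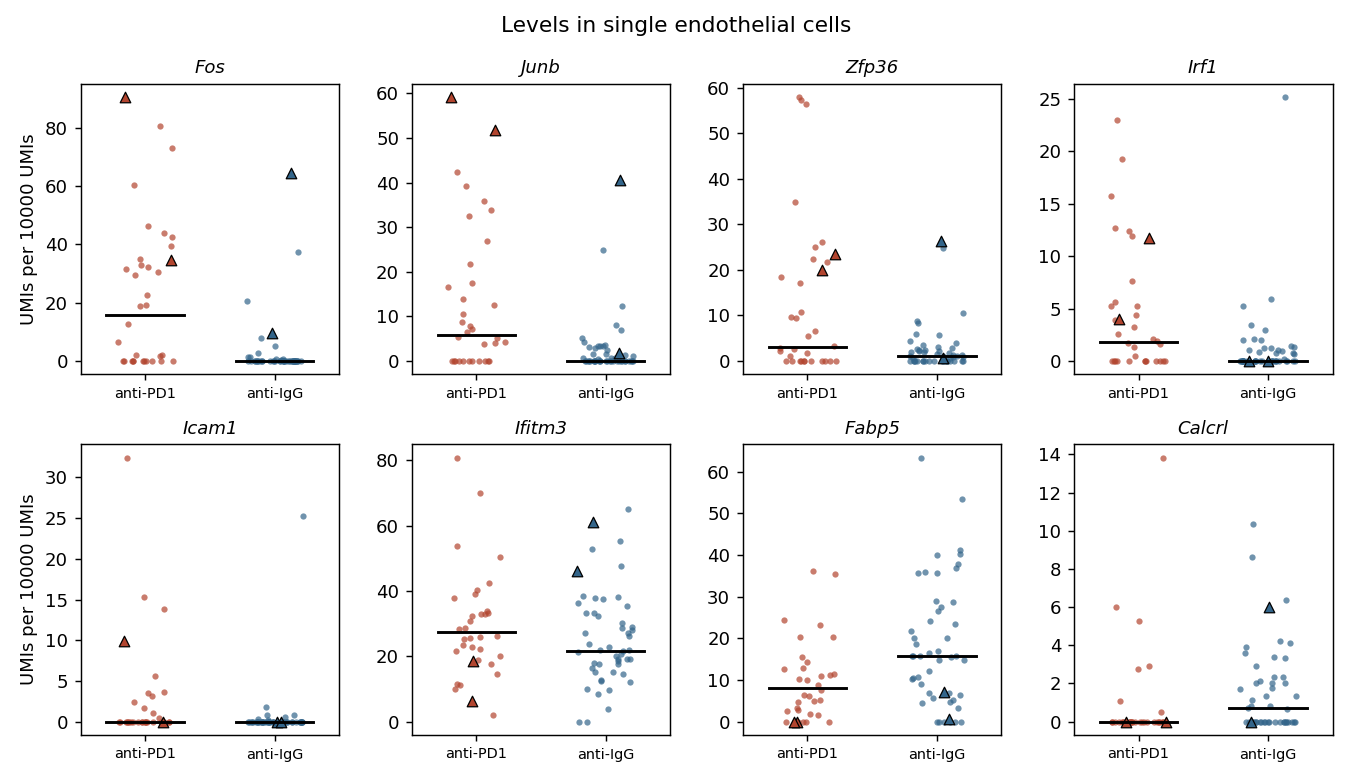
Levels of 8 genes in single endothelial cells in UMIs per 10000 UMIs (y axis, own scale per panel), anti-PD1 left and anti-IgG right in each panel; triangles are the mixed cells and bars the medians without them. Fos, Junb, Zfp36 and Irf1 have higher medians in anti-PD1, Fabp5 has a lower one (8.12 and 15.7 in anti-PD1 and anti-IgG cells), and the points overlap in every panel.

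Genes by which endothelium calls and holds leukocytes differed singly. Of 10 counted, 3 were higher in anti-PD1 and 1 lower (median log2 ratio 0.18). Besides Icam1, these were Csf1, the growth factor of macrophages, with 31 UMIs in 9 anti-PD1 and 16 UMIs in 12 anti-IgG cells (4.58, 2.43 to 8.96), and the neutrophil chemokine Cxcl1, with 83 and 6 UMIs. Of the anti-PD1 Cxcl1 UMIs, 67 lay in the mixed cell with fibroblast transcripts, and without the mixed cells 6 UMIs were left in each library, a ratio of 2.56 (0.68 to 9.58). The scavenging chemokine receptor Ackr3 was the lower gene, with 19 UMIs in 9 anti-PD1 cells and 103 UMIs in 32 anti-IgG cells (0.44, 0.25 to 0.72). The chemokine Cxcl12, which attracts leukocytes and progenitors, had 254 and 423 UMIs (1.42, 1.21 to 1.66), but its ratio was below 1 under 4 other ways of counting. The adhesion gene Icam2 was at 0.82 (0.64 to 1.05). Il6 had 25 UMIs in 3 anti-PD1 cells and 0 in anti-IgG cells, but without the mixed cells 2 UMIs in 1 anti-PD1 cell were left.

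Of 16 angiogenic and tip cell genes counted, 3 were higher in anti-PD1 and 5 lower (median log2 ratio -0.17), and 1 was higher and 5 lower without the mixed cells. Per cell the list had close medians, of 125 and 126 UMIs per 10000 in anti-PD1 and anti-IgG cells, or 125 and 130 without the mixed ones. Apln, the tip cell peptide apelin, had 3 UMIs in 3 anti-PD1 cells and 86 UMIs in 14 anti-IgG cells, 40 of them in 1 cell, a ratio of 0.082 (0.017 to 0.249). Its receptor gene Aplnr had 34 and 134 UMIs (0.60, 0.40 to 0.88). The basement membrane gene Nid2 had 15 and 82 UMIs (0.43, 0.23 to 0.75). Col4a1, a basement membrane collagen gene, had 582 and 1794 (0.77, 0.70 to 0.84), which is short of the 1.5-fold limit. Esm1, another tip cell gene, had 3 and 65 UMIs, but 58 of the anti-IgG UMIs lay in 1 cell. On the higher side, the matricellular gene Ccn1 had 71 and 46 UMIs in anti-PD1 and anti-IgG cells (3.65, 2.48 to 5.40).

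Vessel growth factor receptors had 2 of 21 counted genes higher and 2 lower, shares near or below those of all genes. Calcrl, the receptor chain for adrenomedullin and CGRP, had 12 UMIs in 7 anti-PD1 cells and 76 UMIs in 26 anti-IgG cells (0.37, 0.18 to 0.69), while its partner Ramp2 had 179 and 455 (0.93, 0.78 to 1.11). In thinned cells 2 of 28 anti-PD1 and 14 of 40 anti-IgG cells had a Calcrl UMI. Nrp2, a co-receptor for VEGF-C, had 79 and 325 UMIs (0.57, 0.44 to 0.74). The BMP9 receptor genes were on the other side, with 36 and 41 UMIs for Acvrl1 (2.07, 1.29 to 3.33) and 228 and 380 for the co-receptor Eng (1.42, 1.20 to 1.67).

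Matrix genes linked to endothelial-to-mesenchymal transition had 5 of 11 counted genes higher in anti-PD1 and 1 lower, but 2 and 2 without the mixed cells. The metalloproteinase inhibitor Timp3 had 341 and 396 UMIs (2.03, 1.75 to 2.36; 1.62 without the mixed cells) and fibronectin, Fn1, 58 and 60 (2.28, 1.56 to 3.33; 1.48 without them). In metabolism, fatty acid genes had 2 of 14 higher and 2 lower. Fabp5, a fatty acid binding protein, had 169 UMIs in 27 anti-PD1 cells and 926 UMIs in 44 anti-IgG cells, a ratio of 0.43 (0.36 to 0.51). Only 6 of 32 anti-PD1 cells lay above the anti-IgG median of Fabp5, and the T cell ratio was 1.51. Glycolysis and hypoxia genes had 3 of 13 higher and 1 lower, with Bnip3, a hypoxia-induced mitophagy gene, at 22 and 19 UMIs (2.73, 1.41 to 5.34) and the glycolytic enzyme Gapdh at 98 and 369 (0.63, 0.50 to 0.79). Cell cycle genes had 0 of 10 higher and 7 lower in anti-PD1, but 1 anti-IgG cell held 524 of the list's 1122 anti-IgG UMIs.

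**Figure D5:**
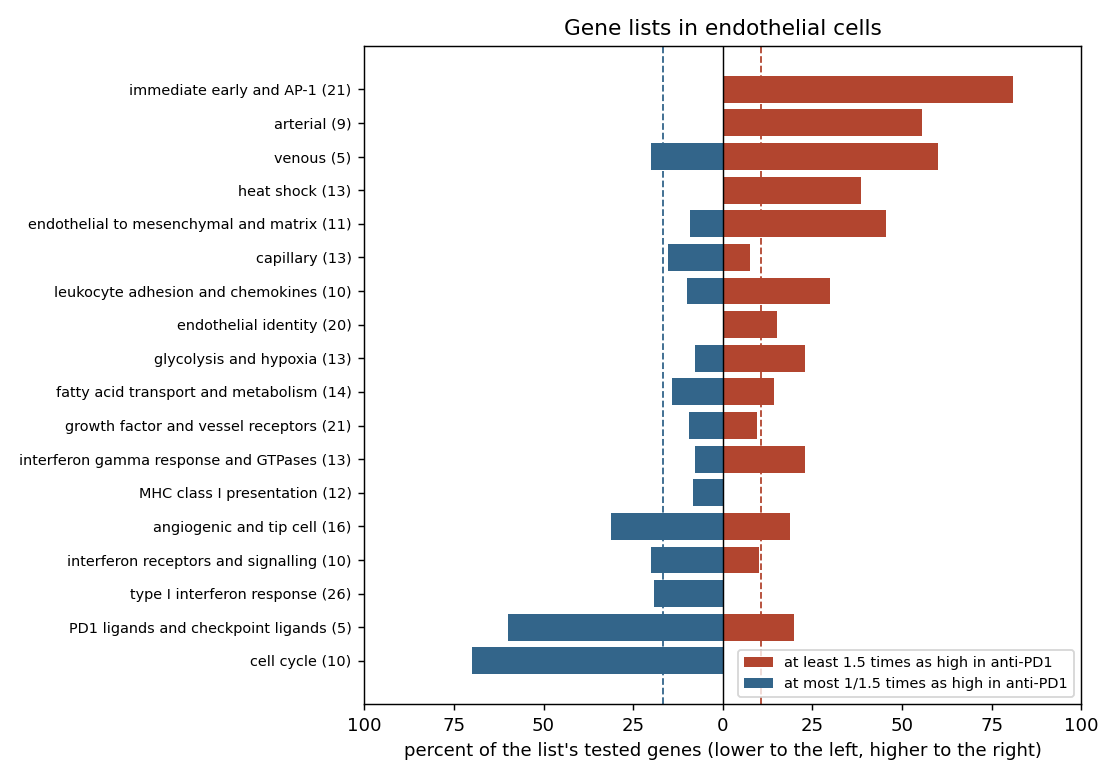
Percent of the counted genes of each list (x axis, number counted in brackets) that were at least 1.5 times as high (right) or lower by that factor (left) in anti-PD1 than in anti-IgG endothelial cells, mixed cells included; dashed lines give the 10.6% and 16.6% of all 3827 genes. The immediate early list stands farthest out on the higher side with 17 of 21 genes, and the cell cycle list on the lower side with 7 of 10.

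The largest single ratios over all genes were mostly those of few cells. Among the 12 highest, the pericyte gene Rgs5 had 177 anti-PD1 and 10 anti-IgG UMIs, with 156 in 1 mixed anti-PD1 cell and a ratio of 6.72 without the mixed cells, and the fibrillar collagen gene Col3a1 had 132 and 35, all of the anti-PD1 ones in 1 mixed cell. Found in more cells were Phlda1, an early pleckstrin family gene with 26 UMIs in 10 anti-PD1 and 4 UMIs in 3 anti-IgG cells (15.4, 5.33 to 60.5), and Gem, an early GTP-binding gene with 32 UMIs in 8 and 4 UMIs in 3 cells (18.9, 6.70 to 73.5). The matrix protease gene Adamts4 had 33 UMIs in 6 anti-PD1 and 6 UMIs in 6 anti-IgG cells (13.0, 5.38 to 37.9), and 13 and 6 UMIs without the mixed cells (5.55, 1.97 to 17.8). The 12 lowest all had 0 anti-PD1 UMIs and came from single anti-IgG cells: 93.9 to 100% of each gene's 33 to 222 UMIs lay in 1 cell. They include C1qa and C1qb, complement genes of macrophages, with 50 UMIs each, and the mesothelial genes Upk3b with 61 and Krt19 with 49.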

How the data were processed

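Cells from 2 mouse heart libraries were measured with a droplet 3′ kit, per the labels' protocols. The deposited matrices hold unnormalized UMI counts for each gene in each barcode. Cell Ranger 7.1.0 wrote them, per the file headers. Per the submitters' processing notes, the tools were Seurat 4.4.0 and Cell Ranger 7.2.0 with the build mm10. The deposited barcodes were limited to called cells.

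Endothelial members, gene lists and named genes were chosen with earlier results of these data known. Cells were filtered and selected as the results state, with no clustering or normalization beyond division by the members' total UMIs. Ratios have exact conditional 95% intervals and shares Clopper-Pearson intervals. A count of 0 was taken to allow up to 3 counts, a fixed limit and not one of the exact intervals. Genes needed 30 summed UMIs to be counted at a fold of 1.5. Thinning drew 2000 UMIs per cell with a fixed seed. Fibroblast cells had at least 4 UMIs of Col1a1, Col1a2, Dcn and Pdgfra, fewer than 4 of the selecting genes and 0 lymphoid UMIs. Of 463 list symbols in 29 lists, 461 matched, and Ccn1 was also looked up under its older symbol Cyr61. Promoters came from RefSeq on GRCm38.p6.

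Named genes were, per list, up to 6 with the most UMIs and up to 6 with the largest ratios each way, plus the 12 highest and 12 lowest ratios overall. Gja4, Gja5, Jag1, Vwf, Npr3, Prox1, Pdcd1, Socs1 and Il6 have under 30 UMIs and were named after their values were seen. The ratio calculation was tested on simulated data. Python 3.11.15, numpy 2.4.6, scipy 1.17.1, pandas 2.3.3 and matplotlib 3.10.9 were used.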

Additional observations from a re-analysis of the deposited data

How the results depend on the processing

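The comparisons were recomputed with other mitochondrial limits, UMI minimums, selecting thresholds and further exclusion markers, with thinned or equally weighted cells and, chosen after seeing the data, without the 4 mixed cells, the deepest cell per library, the top cell of each gene or cycling cells. The share ratio lay between 0.462 and 0.558, the immediate early median log2 ratio between 0.82 and 1.78 and the arterial median between 0.41 and 1.30. The Fos ratio lay between 4.69 and 18.4, Irf1 between 3.86 and 7.57, Icam1 between 4.61 and 15.0 and Fabp5 between 0.403 and 0.545. None of these changed direction. Cd274 lay between 0.167 and 0.811, but with only 3 anti-PD1 and 11 anti-IgG UMIs no direction is read from it. The MHC class I median was -0.18 at a mitochondrial limit of 5%, -0.19 without the deepest cells, 0.30 with 8 further exclusion genes and 0.32 in thinned cells. The type I interferon median was -0.49 with at least 8 selecting UMIs and -0.52 without each gene's top cell. The cell cycle median was -0.045 without the cells above the 95th percentile of UMIs and -0.064 with cells weighted alike. The heat shock median reversed to -0.029 in thinned cells, and the endocardial one was 1.53 with cells weighted alike. The median of the PD1 ligand and checkpoint ligand list ranged from -0.75 to 0.28 over the settings, so its direction was not stable. Genes higher in anti-PD1 numbered 238 with 8 further exclusion genes, 72 in thinned cells, 631 with cells weighted alike, 86 at a minimum of 100 UMIs and 5067 at a minimum of 1; genes lower numbered 97 thinned, 98 at a minimum of 100 and 2228 at a minimum of 1. Without each gene's top cell the macrophage list reversed to 1.28 and the mesothelium list to 1.18. With 8 further exclusion genes Aqp1 reversed to 1.06 and Cxcl12 to 0.877. Without the cells above the 95th percentile Bgn reversed to 0.943, Col3a1 to 0.183, Col6a3 to 0.534 and Cxcl12 to 0.934, and without the mixed cells Bgn to 0.971. In thinned cells Cd36 reversed to 0.936, Cxcl12 to 0.698, Gapdh to 1.1 and Gpihbp1 to 0.990. With cells weighted alike Cd36 reversed to 0.965, Cxcl12 to 0.945 and Ifi27l2a to 1.11. The cause of these changes was not tested. No paired analysis was possible because each group was 1 library. Depth limits every gene under 30 UMIs, Cd274 included, to statements of what was counted.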
